A study of Oryza sativa Japonica Group with 4 samples.

Results

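M.CviP I is a DNA methyltransferase that adds methyl groups to cytosines of purified DNA. The regions described here are those that gained methylation when rice genomic DNA was treated with it, taken as every entry of the deposited list of hyper-DMRs (differentially methylated regions with a higher level in treated DNA). They were 1056015 of the 1245898 regions in the lists of the series, and the other 189883 were losses after zebularine. Each region carries a level in the treated library and a level in the CK library (the untreated control), each the mean over its cytosines as a fraction from 0 to 1. The measure described is the share of unmethylated room filled, (treated − CK)/(1 − CK), which is 0 where treatment added nothing and 1 where every read of every cytosine became methylated.

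The series holds 4 BS-seq (bisulfite sequencing) libraries of rice seedlings of the cultivar Nipponbare, 1 per condition. In the M.CviP I library, 4 μg of purified genomic DNA had been incubated with 8 units of enzyme and 640 μM SAM (S-adenosyl-methionine, the methyl donor) in 20 μl at 37 °C for 1 h, after which the enzyme was inactivated at 65 °C for 20 min. Its CK library was untreated DNA, and the other pair was seedlings grown with 80 μM zebularine in DMSO and their DMSO control. Since each side of the comparison is 1 library, the values have no replicate error, no test of the treatment was possible, and the spreads given are spreads between regions.

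In bisulfite sequencing unmethylated cytosines are converted and read as T, whereas 5-methylcytosine is still read as C. Plant DNA is methylated in the contexts CG, CHG and CHH, where H is A, C or T. In living cells CG methylation is copied by MET1 and CHG methylation mainly by CMT3, while CHH methylation depends on CMT2 and on DRM enzymes guided by small RNAs, and it has to be placed anew after each replication. Transposon-rich DNA around centromeres is heavily methylated and chromosome arms less so. In a reaction with purified DNA none of these pathways acts. M.CviP I is known for methylating cytosines that follow a G, which occur in each context, although the sample descriptions name it a CpG methyltransferase. Sequence letters were not used here, so the cytosines that follow a G could not be counted.

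In most listed CG and CHG regions the treatment filled more than 0.5 of the unmethylated room, and in most listed CHH regions it filled less. The median share filled was 0.691 in 115672 CG regions (quartiles 0.574 and 0.806), 0.641 in 283720 CHG regions (quartiles 0.526 and 0.765) and 0.478 in 656623 CHH regions (quartiles 0.364 and 0.603). The 95% order-statistic intervals of these medians, which cover counting over regions only and treat neighbouring regions as independent, were 0.690 to 0.693, 0.640 to 0.642 and 0.478 to 0.479. The distributions of the contexts overlapped widely, since the lower quartile of CG regions lay below the upper quartile of CHH regions. Of the CG regions, 86.6% reached a share of at least 0.5, as did 79.8% of the CHG and 45.2% of the CHH regions. Outside the low-share stretches described below, listed regions covered 8.16% of the sequence in CG and 80.7% in CHH, with CHG between them. The medians thus compare unlike selected parts of the genome. The part of this selection in the order of the contexts was not tested.

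A minority of regions was almost completely filled. In CG, 8.93% of regions had a share of at least 0.9, compared with 6.81% in CHG and 0.994% in CHH. A treated level of exactly 1 was listed for 2161 CG, 4030 CHG and 1434 CHH regions. Shares under 0.2 made up 0.205% of the CG list, 0.0557% of the CHG list and 2.82% of the CHH list. The low end is shaped by the list itself, which holds only gains of at least 0.1 with a p-value under 0.01 over the cytosines of a region. Gains of 0.1 to 0.11, just inside that limit, belonged to 181 CG, 287 CHG and 1019 CHH regions, and regions with smaller gains were not listed.

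**Figure D1:**
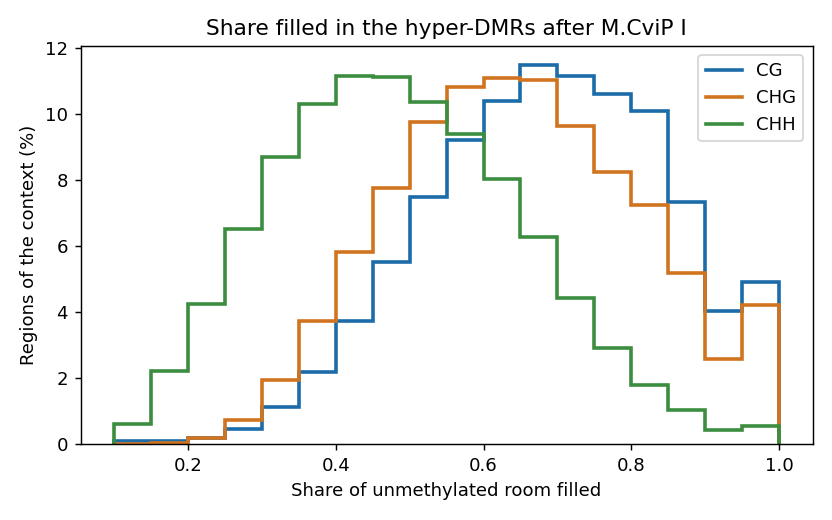
Distribution of the share of unmethylated room filled (x axis, 0 to 1) as a percent of the regions of each context (y axis), from 1 treated and 1 CK library. The CHH curve peaks at lower shares (median 0.478) than the CHG (median 0.641) and CG (median 0.691) curves, and all of the curves overlap.

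Counted in cytosines, the weight of the contexts was different. Summing level times number of cytosines, the gain amounted to 1077513 methylated cytosine equivalents in CG regions, 2552021 in CHG regions and 15620052 in CHH regions. CHH regions thus held 81.1% of the listed gain, with 62.2% of the regions, because a CHH region had a median of 55 counted cytosines against 13 in CG and 15 in CHG regions. The share of the summed room that was filled was 0.671, 0.622 and 0.452, each slightly below the median over regions. Only cytosines inside listed regions enter these sums.

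The starting level in untreated DNA was low in each context. The median CK level was 0.0133 in CG, 0.0132 in CHG and 0.0313 in CHH regions, and a CK level of exactly 0 was listed for 31.3%, 23.6% and 3.19% of them. CG regions with high CK levels were rare: 445 had a CK level of 0.8 or more, where only a small gain is still possible.

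The share filled was higher where untreated DNA had almost no methylation than at intermediate CK levels. In CHH regions the median share fell from 0.631 at CK levels under 0.01 to 0.493 at 0.01 to 0.05, 0.393 at 0.05 to 0.1, 0.335 at 0.1 to 0.2 and 0.324 at 0.2 to 0.4. The CHG medians over the same bins were 0.720, 0.622, 0.541, 0.512 and 0.502, and the CG medians 0.770, 0.678, 0.585, 0.569 and 0.578. Between the lowest bin and the bin from 0.2 to 0.4 the median thus dropped by 0.192 in CG, 0.219 in CHG and 0.307 in CHH regions. The quartile ranges of these bins just met in CG regions (lower quartile 0.663 under 0.01, upper quartile 0.671 at 0.2 to 0.4) and just missed each other in CHG regions (0.609 and 0.604). They were well apart in CHH regions, at 0.546 and 0.413.

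Above a CK level of 0.4 the medians rose again. They reached 0.606, 0.638 and 0.8 in the last 3 CG bins and 0.554, 0.618 and 0.680 in the last 3 CHG bins. The minimum gain of 0.1 sets a lowest possible share of 0.1/(1 − CK), whose median was 0.632 in CG regions with CK levels of 0.8 or more and 0.139 at 0.2 to 0.4. In that top bin, 42.0% of the CG regions lay within 0.1 of this limit, against 0.105% at 0.2 to 0.4. At 0.4 to 0.6 this was 0.266% in CG and 0.256% in CHG, and at 0.6 to 0.8 it was 5.78% and 3.69%. At CK levels of 0.8 or more the rise and the limit of the list cannot be told apart. The part of the limit in the rise between 0.4 and 0.8 was not tested. In CHH the share of regions within 0.1 of the limit was 0.108% at CK levels under 0.01, 14.1% at 0.1 to 0.2 and 20.4% at 0.2 to 0.4, and the part of the limit in the CHH drop was not tested.

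**Figure D2:**
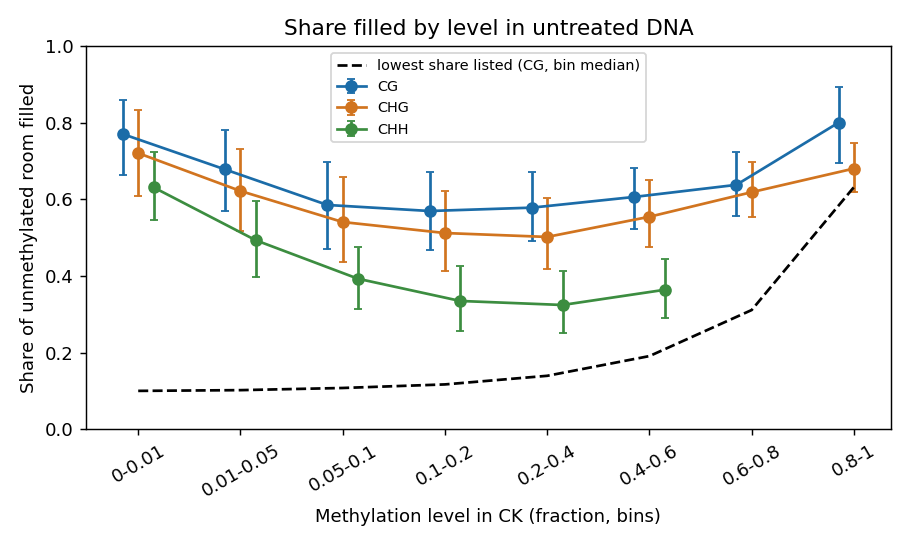
Median share filled (y axis) in bins of the CK level (x axis, fraction) for CG, CHG and CHH regions, with bars from the lower to the upper quartile and a dashed line for the median lowest share that the list admits in CG. The medians drop from 0.770, 0.720 and 0.631 in the lowest bin and turn upward at high CK levels, where the dashed line rises to 0.632.

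The drop with CK level was also present among regions of like cytosine density. In CHH regions with 10 to 12 cytosines per 100 bp, the medians were 0.605, 0.509, 0.420, 0.396, 0.416 and 0.448 from the lowest bin to the bin from 0.4 to 0.6. In CG regions with 4 to 6 cytosines per 100 bp, the median was 0.745 at CK levels under 0.01 and 0.563 at 0.1 to 0.2. In CHG regions of the same density these values were 0.706 and 0.506.

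Cytosine density went with the share filled in opposite directions in CHH and in the symmetric contexts. The description was limited to CK levels under 0.05 and to regions of at least 450 bp, so that the regions set side by side were of like length. In CHH regions the median share was 0.75 at 2 to 4 cytosines per 100 bp, 0.657 at 4 to 6, 0.596 at 6 to 8, 0.567 at 8 to 10, 0.546 at 10 to 12, 0.489 at 12 to 15, 0.403 at 15 to 20 and 0.348 at 20 or more. In CG regions it was 0.612 at 2 to 4 per 100 bp, 0.702 at 4 to 6, 0.762 at 6 to 8 and 0.811 at 8 to 10. In CHG regions it was 0.594, 0.633, 0.711 and 0.774 over these same bins.

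The order of the contexts thus differed between densities. Among the sparsest regions (2 to 4 per 100 bp), CHH regions had a higher median (0.75, 1477 regions) than CG (0.612, 3183 regions) and CHG regions (0.594, 24780 regions). At 4 to 6 per 100 bp the medians were closer together, at 0.702 in CG, 0.633 in CHG and 0.657 in CHH. At 8 to 10 per 100 bp the CHH median (0.567) was far below those of CG (0.811) and CHG (0.774), and the quartile ranges of CHH and CG no longer met (upper quartile 0.655 in CHH, lower quartile 0.730 in CG). A density of 8 to 10 is common for CHH and rare for CG, with 79415 CHH and 381 CG regions.

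**Figure D3:**
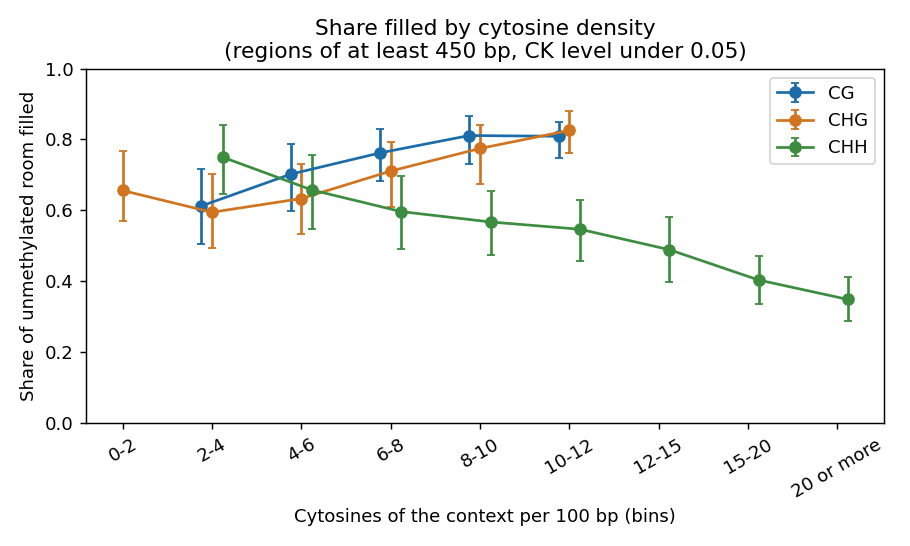
Median share filled (y axis) in bins of the number of cytosines of the context per 100 bp (x axis) for regions of at least 450 bp with CK levels under 0.05, with bars from the lower to the upper quartile. The CHH line falls from 0.75 to 0.348, while the CG and CHG lines rise from 0.612 and 0.594 at 2 to 4 per 100 bp to 0.811 and 0.774 at 8 to 10.

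The CHH slope was also present at higher CK levels, but the CG slope was not. At CK levels of 0.1 to 0.2, without a limit on length, the CHH medians ran from 0.624 at 2 to 4 per 100 bp to 0.261 at 20 or more. The CG medians there were 0.578 at 2 to 4, 0.563 at 4 to 6, 0.580 at 6 to 8 and 0.577 at 8 to 10. The CHG medians fell from 0.558 to 0.491 at 6 to 8 per 100 bp and were 0.646 at 20 or more, in 44 regions. In the dense CHH bins the CK level moved with density even below 0.05, from a median of 0.0111 at 2 to 4 per 100 bp to 0.0390 at 20 or more, and its part in the slope was not tested beyond the bins given here. Only cytosines with at least 3 reads were counted, so the density also carries coverage, which is unknown.

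The same picture appeared by the number of cytosines, with a turn in the smallest regions. At CK levels under 0.05, CHH regions of 5 to 9 cytosines had a median share of 0.810 and those of 80 or more had 0.388. CG regions of 5 to 9 cytosines had 0.759, those of 10 to 14 had 0.689 and those of 40 to 59 had 0.809. CHG regions had 0.772, 0.647 and 0.804 in these classes, with the lowest median, 0.621, at 15 to 19 cytosines. The 5th percentile of the share was 0.532 in CG regions of 5 to 9 cytosines against 0.397 in those of 15 to 19, while the lowest shares listed were 0.102 and 0.168. A p-value over cytosines needs a larger difference, or more even cytosines, where cytosines are few, and its part in the turn was not tested.

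In each context, the extremes among regions with at least 30 cytosines and a CK level under 0.05 show how far single regions went. The most completely filled CG region, chr8:9508266-9508558, had 33 cytosines and went from 0 in CK to 0.994 in treated DNA. The top CHG region, chr7:13079650-13080039, had 35 cytosines and levels of 0.004 and 1. The top CHH region, chr2:30897589-30898057, had 31 cytosines and levels of 0 and 0.984. For comparison, the median share of all such regions was 0.784 in CG, 0.730 in CHG and 0.524 in CHH.

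The least filled regions of this kind gained little more than the list's minimum. The lowest CG region, chr9:4707747-4708243, had 36 cytosines with a level of 0.161 in treated and 0.0397 in CK DNA, a share of 0.127. The lowest CHG region, chr9:4695477-4695968, had 39 cytosines with levels of 0.165 and 0.0423, a share of 0.129. Both lay on the same part of chromosome 9. The lowest CHH region, chr6:5078285-5078733, had 44 cytosines with levels of 0.114 and 0.0123, a share of 0.103. Coordinates are those of MSU7.0, and what genes or elements lie there was not analysed here.

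Along the chromosomes, CHH regions were filled more near the ends than in the middle. Each chromosome was divided into 10 equal segments, numbered from its first base. The CHH median over all chromosomes was 0.504 in segment 1, 0.449 in segment 5 and 0.533 in segment 10. The CHG medians were 0.651, 0.606 and 0.663, and the CG medians 0.698, 0.684 and 0.700. In CHH and in CHG, segment 10 was above segment 5 in 12 of 12 chromosomes, and in CG in 8. Segment 1 was above segment 5 in 9 chromosomes in CHH and in 11 each in CHG and CG.

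The CK level and the density moved with position as well. The median CK level of CHH regions was 0.0236 in segment 1, 0.0389 in segment 5 and 0.0175 in segment 10, and their median density was 11.3 cytosines per 100 bp in segment 1 and 12.1 in segment 5. Among CHH regions with CK levels under 0.05 the medians were 0.568, 0.494 and 0.597, and with the density fixed at 10 to 12 per 100 bp in addition they were 0.566, 0.515 and 0.587. The dip in the middle was still there with both held in these ranges. In CHG the difference between the outer (1 and 10) and the middle (5 and 6) segments shrank from 0.0420 to 0.0180 at CK levels under 0.05, and the CHG values with both held were 0.668, 0.643 and 0.669. For CG the corresponding values with both held were 0.717, 0.701 and 0.709, with the lowest, 0.692, in segment 4. The lowest CHG value with both held was also in segment 4, at 0.643.

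**Figure D4:**
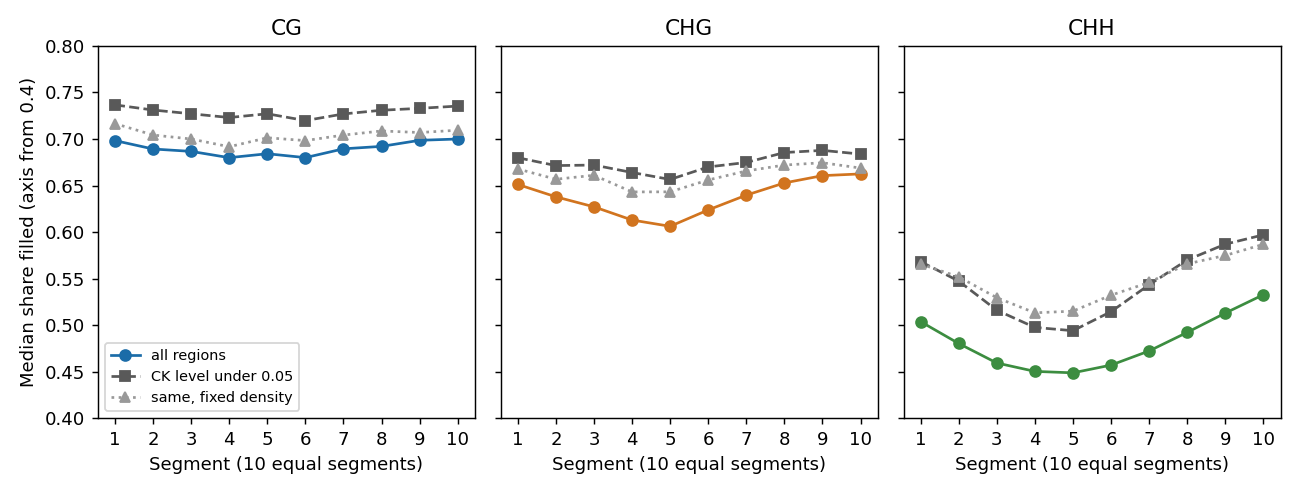
Median share filled (y axis, starting at 0.4) in 10 equal segments from the start to the end of the chromosomes (x axis) in CG, CHG and CHH, for all regions (circles), regions with CK levels under 0.05 (squares) and those of a fixed density in addition (triangles). In CHH the median dips from 0.504 to 0.449 and rises to 0.533, and the lines with CK level and density held keep a dip. In CG the line with both held lies between 0.692 and 0.717.

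Whole chromosomes differed little. The medians lay between 0.677 (chromosome 12) and 0.698 (chromosome 3) in CG, between 0.618 (chromosome 12) and 0.657 (chromosome 3) in CHG, and between 0.466 (chromosome 10) and 0.499 (chromosome 3) in CHH. These ranges are small beside the quartile ranges within a context.

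Windows of 1 Mb with at least 50 regions gave a finer view. In CHH the lowest of 378 windows was 15 to 16 Mb of chromosome 6 (median 0.417, 1871 regions) and the highest 34 to 35 Mb of chromosome 4 (median 0.575, 1770 regions). The median CK levels of these windows were 0.0471 and 0.0141. In CHG the highest was 1 to 2 Mb of chromosome 1 (0.695), and in CG it was 12 to 13 Mb of chromosome 7 (0.764, 94 regions). Across windows, Spearman's rho between the median share and the median CK level was −0.928 in CHH, −0.901 in CHG and −0.713 in CG. Pearson's r was −0.931 in CHH, −0.399 in CHG and −0.825 in CG. The CK level enters the share itself, so the 2 quantities are not independent. The windows also share both libraries and their reads, and their CK level and density were themselves related (rho of 0.866 in CHH). These values therefore describe the pattern and carry no test.

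The lowest window in both CG and CHG was 20 to 21 Mb of chromosome 12, and its low values came from a single stretch. Its CG median was 0.379 (328 regions), while the next lowest of the 377 CG windows, 4 to 5 Mb of chromosome 9, had 0.585. Its CHG median was 0.508. Without the regions of the stretch described next, the medians of this window were 0.647 in CG (150 regions) and 0.613 in CHG (403 regions). The chromosome 9 window, without the stretch in it, had a CG median of 0.633.

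Such stretches were then searched along the genome, by a rule chosen after the values had been seen: windows of 20 kb with at least 5 CG regions and a median CG share under 0.35, joined where they lay within 3 windows of each other. Of 11172 windows with enough CG regions, 19 (0.170%) met it, in 5 stretches. These were chr1:33500001-33600000, chr4:32880001-32900000, chr9:4680001-4740000, chr12:8520001-8560000 and chr12:20460001-20680000. The CG medians were chosen to be low. The CHG medians, which the rule did not use but which come from the same 2 libraries, were 0.319, 0.258, 0.312, 0.337 and 0.271, against 0.641 outside the stretches. The CHH medians were 0.326, 0.325, 0.384, 0.372 and 0.310, against 0.478 outside. The least filled CG and CHG regions named above both lie in the chromosome 9 stretch.

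The stretch of 220 kb on chromosome 12 was the longest, with 9 windows of 20 kb that met the rule and others joined between them. It held 178 CG regions with a median share of 0.266 (quartiles 0.218 and 0.324), 205 CHG regions with 0.271 and 326 CHH regions with 0.310. CG regions there were dense, with 9.55 cytosines per 100 bp against 5.88 outside, and had a median CK level of 0.128 against 0.0132 outside. Outside the stretches, CG regions of at least 450 bp and 8 cytosines per 100 bp had a median share of 0.628 (quartiles 0.514 and 0.742). Their median CK level was 0.331. On the whole list, CG regions with CK levels of 0.1 to 0.2 and 8 to 10 cytosines per 100 bp had 0.577. CHH regions held 23.2 cytosines per 100 bp against 11.6 outside, at a median CK level of 0.0078 against 0.0313. The median untreated CHH level was thus lower in the stretch than outside it, while the CHH share filled was also lower. Low CHH shares were also found at high density on the whole list, but at a higher median CK level. On the whole list, 2904 CHH regions of at least 450 bp had CK levels under 0.05 and 20 or more cytosines per 100 bp. Their median share was 0.348 (quartiles 0.288 and 0.410), with regions of the stretch included. Their median CK level was 0.0390, against 0.0078 in the stretch. CHH regions of any density with CK levels under 0.01 had a median share of 0.631 (5th percentile 0.418). Regions matched to the stretch in both density and CK level were not compared.

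The regions with the most counted cytosines in the stretch are given as examples only, since the stretch was chosen for low CG shares. In CG, chr12:20620885-20621378 had 94 cytosines at 0.498 in treated and 0.167 in CK DNA. In CHG, chr12:20545036-20545506 had 72 cytosines at 0.377 and 0.145. In CHH, chr12:20519738-20520237 had 160 cytosines at 0.199 and 0.0075, a share of 0.193.

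Read depth and mapping in the stretches are unknown, and their part was not tested.

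**Figure D5:**
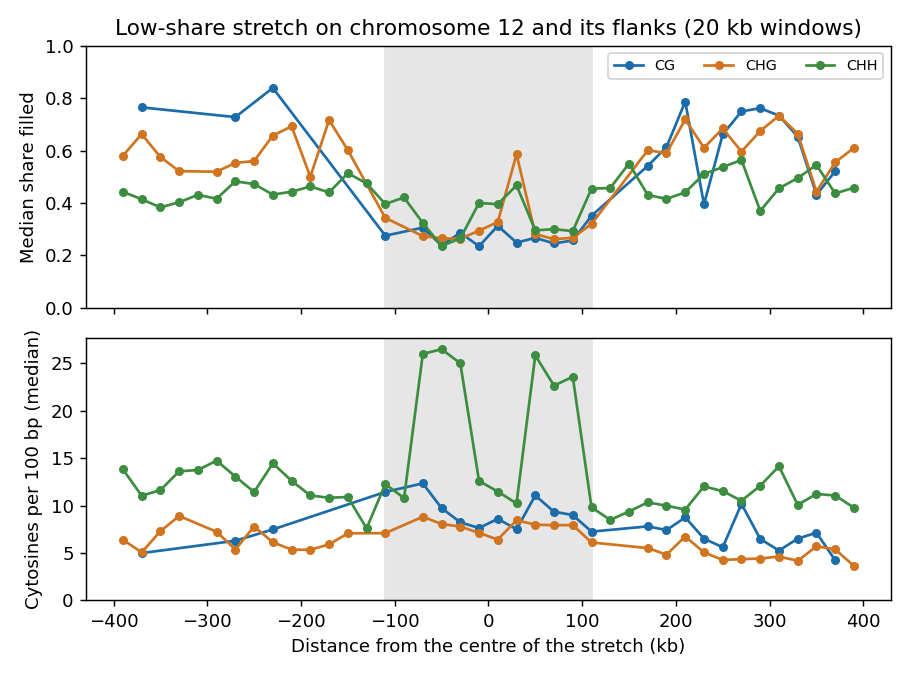
Median share filled (upper panel) and median number of cytosines of the context per 100 bp (lower panel) in 20 kb bins counted from the centre of the 220 kb stretch on chromosome 12 (grey, x axis in kb), with a point where a bin held at least 3 regions of that context. The outermost grey bins reach past the stretch. CG and CHG shares lie mostly near 0.27 in the grey area and mostly above 0.5 in the flanks, and CHH density exceeds 20 per 100 bp in several windows of the stretch.

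Within a region, the cytosines were unevenly filled. For regions with a CK level of 0, the deposited t statistic gives the variance between cytosines in the treated library. It was expressed as a share of the largest variance possible at that level (at both levels where the CK level was above 0), so that 1 means that each cytosine is either fully or not at all methylated and 0 means equal levels at every cytosine. Regions with an infinite t statistic, in which the cytosines of a library do not differ, give no value and were left out (1767 CG, 3360 CHG and 1174 CHH regions with a CK level of 0). The median was 0.691 in 34452 CG regions, 0.751 in 63606 CHG regions and 0.691 in 19774 CHH regions. In regions with at least 20 cytosines it was 0.698, 0.760 and 0.732. If every cytosine had the same true level and were read 3 times, the lowest depth counted, sampling alone would give about 0.333 on average, and 89.0% of the CG regions were above that value, as were 88.4% each of the CHG and CHH regions. With the regions left out counted as not above it, these percentages were 84.7% in CG, 83.9% in CHG and 83.5% in CHH. The measure was lower at the top end, at 0.217 in CG, 0.157 in CHG and 0.211 in CHH regions with treated levels from 0.9 to below 1. In CG it was also lower at the bottom end, with a median of 0.397 in the 227 regions with treated levels under 0.4, where 43.2% had a value below 0.2. The bottom values in CHG and CHH were 0.735 and 0.605. The limit of a p-value under 0.01 caps the spread of a listed region where its level is low and its cytosines are few. These bottom regions had a median of 10 cytosines in CG, 14 in CHG and 15 in CHH. The part of that limit in the low CG value and in the contrast between contexts was not tested.

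In the chromosome 12 stretch this spread differed between the contexts. Its median there, over regions of all CK levels, was 0.349 in CG and 0.449 in CHG, against 0.688 and 0.726 outside, and 0.802 in CHH, against 0.687 outside. The median treated levels there were 0.362 in CG, 0.347 in CHG and 0.316 in CHH. Among regions with a CK level of 0 and treated levels under 0.4, the median spread was 0.397 in CG, 0.735 in CHG and 0.605 in CHH. Those CG regions had a median of 10 cytosines, against 42 in the stretch. The part of the treated level in the spread of the stretch was not tested.

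Where CG and CHG regions shared a 500 bp window, the CHG region was more often the one filled more. In 77389 windows with both, the median difference CG minus CHG was −0.0492, and CHG was higher in 61.3% of them, although the median over all CHG regions was below that of CG. The medians in these windows were 0.689 in CG and 0.740 in CHG. CG was above CHH by 0.0550 in 97662 windows (higher in 61.6%), and CHG above CHH by 0.0589 in 251384 windows (higher in 64.1%). At CK levels under 0.05 in both contexts the differences were −0.0512, 0.0271 and 0.0396. These differences depended on the window. In windows of 2 kb CG minus CHG was −0.00976, CG minus CHH was 0.144 and CHG minus CHH was 0.11.

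The share filled also differed with the contexts that a window held. The class of a window depends on which contexts passed the cutoffs on gain and p-value, and the part of this selection was not tested. Percentages are of windows with a listed region. CHH regions alone occupied 54.7% of windows, with a median CHH share of 0.414 at a CK level of 0.0465. Windows with CHG and CHH regions made up 27.2%, with medians of 0.599 and 0.553. Windows with all contexts made up 10.8%, with 0.683 in CG, 0.733 in CHG and 0.643 in CHH. The CHH CK level was lower in these classes, at a median of 0.0133 with CHG and CHH regions and 0.0121 with all contexts. CG and CHG regions without a CHH region were in 0.936% of windows and were filled to 0.767 and 0.824, and CG regions alone were in 0.9% and had 0.812.

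The zebularine experiment provides an independent mark of where CG methylation is present in seedlings, since a CG region that lost methylation must have had some. CHH regions overlapping a zebularine CG hypo-DMR by at least 1 base (33.5%) had a median share of 0.443, and the others had 0.504. With CK levels under 0.05 these values were 0.495 and 0.566, and with the density fixed in addition 0.522 and 0.560. In CHG the overlapping regions (17.0%) had 0.580 and the others 0.657, which became 0.614 and 0.671 with CK level and density held. In CG 2.14% of the regions overlapped, with 0.626 against 0.693, and their median CK level was 0.348 against 0.0127. A listed CG gain needs unmethylated room and a listed CG loss needs methylation, which restricts this overlap beforehand. The part of the genome covered by CG hypo-DMRs was not counted, and longer regions overlap more easily. The percentages that overlapped are therefore not read as a result. At CK levels under 0.05 the CG shares were 0.703 and 0.73, and with the density fixed in addition 0.687 and 0.706.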

How the data were processed

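BS-seq libraries of M.CviP I treated and CK DNA (1 each) were analysed from the deposited hyper-DMR list, and the hypo-DMR list served for the overlap only. According to the methods, the authors trimmed reads with Fastp, aligned them to MSU7.0 with Bismark, kept cytosines with at least 3 reads and obtained regions with CGmapTools (versions are not given in the sources used here). Levels are deposited as a fraction. The deposited t statistic (a score) and the deposited p-value come from the authors' comparison of cytosines within a region. They were used here only for the spread between cytosines, ties and stricter cutoffs. The lists have no header, so treated and CK columns follow from the direction of the list. Depth is unknown.

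Shares, medians and quartiles were computed with Python 3.11.15, numpy 2.4.6, pandas 2.3.3, scipy 1.17.1 and matplotlib 3.10.9. The share filled and the spread measure were checked on simulated data, and quartiles and binned medians were not. Named regions were the highest and lowest share per context with at least 30 cytosines and a CK level under 0.05, and named windows the extremes among 1 Mb windows with at least 50 regions. The regions and stretches were chosen with earlier results of these data known. Alternatives were stricter cutoffs, more cytosines, low CK levels, 1 region per 10 kb, p-values of 0 left out, means, pooling, longer regions and 2 kb windows. GpC content and genes were not analysed here, as no genome of MSU7.0 was used.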

Additional observations from a re-analysis of the deposited data

How the results depend on the processing

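Of 42 alternative values, 6 lay within the 95% interval of the main value, 36 outside it and 0 changed direction. The median share in CG, CHG and CHH was 0.739, 0.683 and 0.481 at p-values under 0.001, 0.693, 0.645 and 0.490 at gains of at least 0.2, 0.660, 0.606 and 0.472 with at least 10 cytosines, 0.730, 0.677 and 0.544 at CK levels under 0.05, 0.679, 0.633 and 0.479 with 1 region per 10 kb, 0.686, 0.646 and 0.488 as a mean, and 0.671, 0.622 and 0.452 pooled over cytosines. Without p-values of 0 it was 0.688 in CG and 0.639 in CHG. Leaving out the low-share stretches, an alternative chosen after seeing the data, gave 0.692, 0.641 and 0.478. The drop with CK level became 0.230, 0.234 and 0.293 with at least 20 cytosines. Dense minus sparse regions (at least 8 against under 4 cytosines per 100 bp in CG and CHG, at least 12 against under 6 in CHH) differed by 0.128, 0.145 and −0.257 over all lengths, by 0.201, 0.198 and −0.211 from 450 bp, and under both stricter cutoffs by 0.106 in CG and −0.263 in CHH. At CK levels under 0.05 the outer (1 and 10) minus the middle (5 and 6) segments gave 0.0180 in CHG and 0.0796 in CHH, against 0.0420 and 0.0656. In 2 kb windows CG minus CHG was −0.00976, CG minus CHH 0.144 and CHG minus CHH 0.11.

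No paired analysis was possible because 1 library stood on each side of the comparison. The minimum of 3 reads could not be varied, since no depth is listed. A difference between these libraries cannot be told apart from a difference between reactions or library preparations.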

Other observations

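Neighbouring regions of a context resembled each other over short distances. Pearson's r between the shares of adjacent regions separated by at most 50 bp was 0.345 in CG (3373 pairs), 0.294 in CHG (21907 pairs) and 0.383 in CHH (493023 pairs). At gaps above 2 kb and up to 10 kb it was 0.00404, 0.0559 and 0.0885. Such pairs share libraries and, at short gaps, reads.

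The longest stretch without a listed region of any context was chr11:12329250-12549956, of 220707 bp, followed by chr11:12199156-12266992 (67837 bp) and chr4:15626678-15687614 (60937 bp). Whether these stretches had mapped reads is unknown from the list.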
